A study of Mus musculus with 12 samples.

Results

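The genes described here encode cathepsins, subunits of the vacuolar proton pump (V-ATPase) and the lysosomal membrane glycoproteins Lamp1 and Lamp2. They were chosen by name from the array annotation: every cluster annotated to exactly 1 gene symbol of these families was taken, except Ctsg, which encodes a serine protease of primary granules. This gave 41 of 30827 named genes, each with 1 array cluster: 14 cysteine cathepsins, the aspartic cathepsin Ctse, the serine cathepsin Ctsa, 13 subunits of the V1 sector, 8 of the V0 sector, 2 accessory subunits and both Lamp genes. Ctsd shares its only cluster with another gene and was not analysed here, nor was Atp6v0c.

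Lysosomes degrade proteins, lipids and sugars at acid pH. The V-ATPase makes them acid: its cytosolic V1 sector hydrolyses ATP and turns a rotor that moves protons through the V0 sector in the membrane. Cathepsins are proteases delivered to these compartments as inactive precursors, which are processed at low pH, and LAMP proteins coat the lysosome's membrane. In myeloid cells, cathepsin C activates the serine proteases of granules, and cathepsins S and L trim antigens and the invariant chain. Many of these genes can be bound by TFEB and TFE3, basic helix-loop-helix factors that recognise the sequence CACGTG.

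Expression was measured on 12 arrays of mouse HoxB8-ER cells (C57BL/6), myeloid progenitors kept growing by a fusion of HOXB8 with the hormone-binding part of the estrogen receptor. Estradiol at 0.5 µM holds them as promyelocytes, and its removal lets them form neutrophils over 6 days. The 6 groups had 2 arrays each: wild-type and Ezh2-/- undifferentiated cells, wild-type and Ezh2-/- neutrophils, and wild-type neutrophils given vehicle or GSK343. EZH2 is the histone methyltransferase of Polycomb repressive complex 2, and GSK343 inhibits it. GSK343 was given for 9 days, at 0.5 µM by the sample labels and at 1 µM by the series text, so the dose is not settled. The wild-type cells came from littermates of the Ezh2-null mice, and all groups carry HoxB8-ER. The number of lines behind each genotype is unknown here, as is whether the duplicates were separate cultures. Genotype and cell line therefore cannot be told apart, and the p-values cover no more than the spread between duplicate arrays, possibly a technical one.

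Values are log2 signals, and a difference of 1 is a 2-fold change. The median over all clusters was 4.54 to 4.65 on the 8 genotype arrays and 3.88 to 3.96 on the 4 vehicle and GSK343 arrays, so levels are set side by side only within each range. Ezh2 read 11.57 and 11.65 in wild-type and 9.10 and 9.44 in Ezh2-null undifferentiated cells (difference −2.34, SE 0.155, limma adjusted p = 5.5e-05). In neutrophils it read 8.31 and 8.34 in wild type and 8.74 and 9.02 in those labelled Ezh2-null (difference 0.55, adjusted p = 0.0501). The transcript was thus not lower in these cells, and with quantile normalization, median centring or a replicate block it was called as higher (0.54 to 0.58). Accordingly these cells are called neutrophils labelled Ezh2-null. All 10 neutrophil markers listed, among them Ltf, Ngp and Mmp9, were above array background in every neutrophil array. Background was taken on each array as the 95th percentile of its 23 antigenomic controls. It lay between 4.83 and 5.79, and 25 of the 41 genes lay above it on all 12 arrays. This limit is lenient. The median of 5222 negative-control probe sets was higher than it on most arrays, and lay between 5.19 and 6.60. A gene or marker counted as above background can therefore read lower than that median.

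Promoter windows of 300 bases (250 before to 50 after the start site) were available from RefSeq for 31 of the 41 genes, in 33 windows. They are shown for 5 genes that the results turn on: Lamp1, Atp6v0b and Ctsa, with several CACGTG sites, Ctsl, which differed between genotypes, and Ctss, which changed most on differentiation. The windows, on build GRCm38.p6 and read 5′ to 3′ along each gene's own strand, are chr8:13158911-13159210 (plus strand) for Lamp1, chr4:117887280-117887579 (minus) for Atp6v0b, chr2:164833523-164833822 (plus) for the second of 2 Ctsa windows, chr13:64370471-64370770 (minus) for Ctsl and chr3:95526536-95526835 (plus) for Ctss. Capitals mark CACGTG, and TCATGTG or its reverse complement.
Lamp1: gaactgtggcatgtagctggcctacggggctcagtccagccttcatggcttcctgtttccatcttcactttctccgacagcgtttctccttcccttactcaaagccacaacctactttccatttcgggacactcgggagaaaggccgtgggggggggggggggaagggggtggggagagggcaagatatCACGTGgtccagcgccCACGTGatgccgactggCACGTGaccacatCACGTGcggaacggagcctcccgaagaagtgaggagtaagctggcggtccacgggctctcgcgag
Atp6v0b: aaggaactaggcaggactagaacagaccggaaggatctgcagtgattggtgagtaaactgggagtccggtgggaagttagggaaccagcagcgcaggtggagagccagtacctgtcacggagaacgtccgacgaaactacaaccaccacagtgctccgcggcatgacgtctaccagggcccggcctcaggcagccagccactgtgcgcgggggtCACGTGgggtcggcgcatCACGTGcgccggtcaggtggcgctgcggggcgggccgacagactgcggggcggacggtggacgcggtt
Ctsa: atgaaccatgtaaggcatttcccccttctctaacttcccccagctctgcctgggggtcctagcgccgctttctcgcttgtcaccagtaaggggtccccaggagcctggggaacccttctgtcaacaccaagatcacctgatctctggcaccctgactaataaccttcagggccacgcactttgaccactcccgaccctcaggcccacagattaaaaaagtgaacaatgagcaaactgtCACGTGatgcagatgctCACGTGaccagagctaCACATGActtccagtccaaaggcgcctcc
Ctsl: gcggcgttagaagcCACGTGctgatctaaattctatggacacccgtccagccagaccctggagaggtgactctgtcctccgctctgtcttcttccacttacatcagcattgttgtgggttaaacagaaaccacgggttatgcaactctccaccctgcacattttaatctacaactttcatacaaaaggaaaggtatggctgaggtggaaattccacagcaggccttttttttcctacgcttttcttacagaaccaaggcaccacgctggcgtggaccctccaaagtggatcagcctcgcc
Ctss: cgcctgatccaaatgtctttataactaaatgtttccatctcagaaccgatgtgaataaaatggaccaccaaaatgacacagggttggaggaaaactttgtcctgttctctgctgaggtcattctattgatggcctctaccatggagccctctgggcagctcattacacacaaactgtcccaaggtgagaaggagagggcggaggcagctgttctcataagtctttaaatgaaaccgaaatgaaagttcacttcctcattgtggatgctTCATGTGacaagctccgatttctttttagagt
In these windows, CACGTG began 61, 45, 28 and 15 bases before the Lamp1 start site, 36 and 18 bases before that of Atp6v0b, and 236 bases before that of Ctsl. In Ctsa it began 12 bases before and 5 bases after the start site, and TCATGTG lay at 21 bases after it. Ctss held no CACGTG and a TCATGTG 18 bases after its start site. Searched on both strands, CACGTG was in the windows of 8 of the 31 genes (25.8%): Atp6v0b, Atp6v0d1, Atp6v0e, Atp6v1a, Ctsa, Ctsf, Ctsl and Lamp1. It was in 7.15% of all 32851 windows and in a window of 8.09% of all genes. The longer TCACGTG, which contains CACGTG, was in 6 of the 31 (19.4%, against 4.29% of all genes), and GTCACGTG, which contains both, in 4 (12.9% against 2.55%). A still longer palindrome that contains GTCACGTG was also searched for and was in 0 of the 31 (0.0% against 0.37%). That palindrome is too rare for its absence from 31 genes to be informative. TCATGTG was in 2 (6.45% against 4.31%), and GAGGAAGT, a sequence that PU.1 can bind, was in Ctsc and Ctss (6.45% against 3.69%). The windows also differ in base composition: the median number of CG dinucleotides was 7 over all windows, 12 over the 33 of these genes and 19 over those with CACGTG. A match describes letters in the window and not a bound site.

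The first comparison asked what differentiation of wild-type cells did to these genes. Of the 41, 26 rose and none fell at an adjusted p under 0.05, where 25.3% of the 65956 clusters tested were called, 13.0% as higher and 12.2% as lower. Of these clusters, 33206 had no gene symbol, and only 34.0% to 36.0% were above background on the arrays compared. The 41 genes are thus set against mostly dim clusters, here and wherever a share of all clusters is given. The median difference of the 41 genes was 1.19, against 0.03 over all clusters. The rises covered 8 of 14 cysteine cathepsins, Ctse, Ctsa, 8 of 13 V1 genes, 5 of 8 V0 genes, Atp6ap1 and both Lamp genes. Of the 8 genes with CACGTG in a promoter window, 7 rose, and of the 23 genes with a window lacking it, 11 rose. The genes lacking it include Atp6v0a4, Atp6v0e2, Atp6v1b1, Atp6v1c2, Atp6v1g3, Ctsj, Ctsm, Ctsq and Ctsr, at or under background on all 12 arrays. No gene with CACGTG was at or under background throughout. Ctsf, the 1 of them that did not rise, was above it on only 1 of the 12 arrays. The counts with and without CACGTG therefore do not compare like genes. A link of the motif to the rises was not tested.

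Cathepsin S, an elastinolytic protease that stays active at neutral pH, changed most. Ctss read 6.09 and 5.47 in undifferentiated wild-type cells, close to their background of 5.5 and 5.38, and 16.52 and 16.75 in wild-type neutrophils. The groups were far apart, a 1843-fold rise (difference 10.85, SE 0.262, adjusted p = 4.22e-08). Ctse, an aspartic protease of endosomes, read 5.02 and 4.96, under background, before and 14.42 and 12.55 after differentiation, at least 264-fold higher (8.49, SE 0.464, adjusted p = 2.67e-06). Its neutrophil arrays were themselves far apart, and without the first of them the difference was 7.56. Ctsb, a lysosomal endo- and carboxypeptidase, rose from 12.94 and 12.69 to 18.04 and 18.40, or 42.4-fold (5.41, SE 0.367, adjusted p = 8.52e-06). Ctsl, an endopeptidase, rose from 7.85 and 8.15 to 11.90 and 12.01, or 15.5-fold (3.96, SE 0.158, adjusted p = 5.49e-07). Neither gene's groups overlapped.

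The other cathepsins rose less. Ctsz, a carboxypeptidase, read 12.34 and 11.98 before and 14.17 and 14.87 after (2.36, SE 0.317). Ctsa, a carboxypeptidase that also protects the sialidase Neu1, read 11.54 and 10.63, then 12.93 and 13.78 (2.27, SE 0.362). The aminopeptidase gene Ctsh lay under background at 4.76 and 4.87 and reached 6.58 and 6.40, at least 2.07-fold higher, or at least 1.37-fold with background set from the negative controls. Each of these genes read higher on both neutrophil arrays than on either undifferentiated array. Ctsk, the collagen-degrading protease known from osteoclasts, went from 4.32 and 4.17 to 5.84 and 5.61, at least 1.22-fold, a bound that was lost with the negative-control limit. Ctso, a widely expressed protease of little-known function, went from 7.14 and 7.20 to 8.06 and 8.36 (1.04, SE 0.137). Ctsc, which activates granule serine proteases, read 11.52 and 12.11, then 12.69 and 13.81 (1.44, adjusted p = 0.0249). Its call was lost without the first undifferentiated array (1.14) and without the second neutrophil array (0.88).

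**Figure D1:**
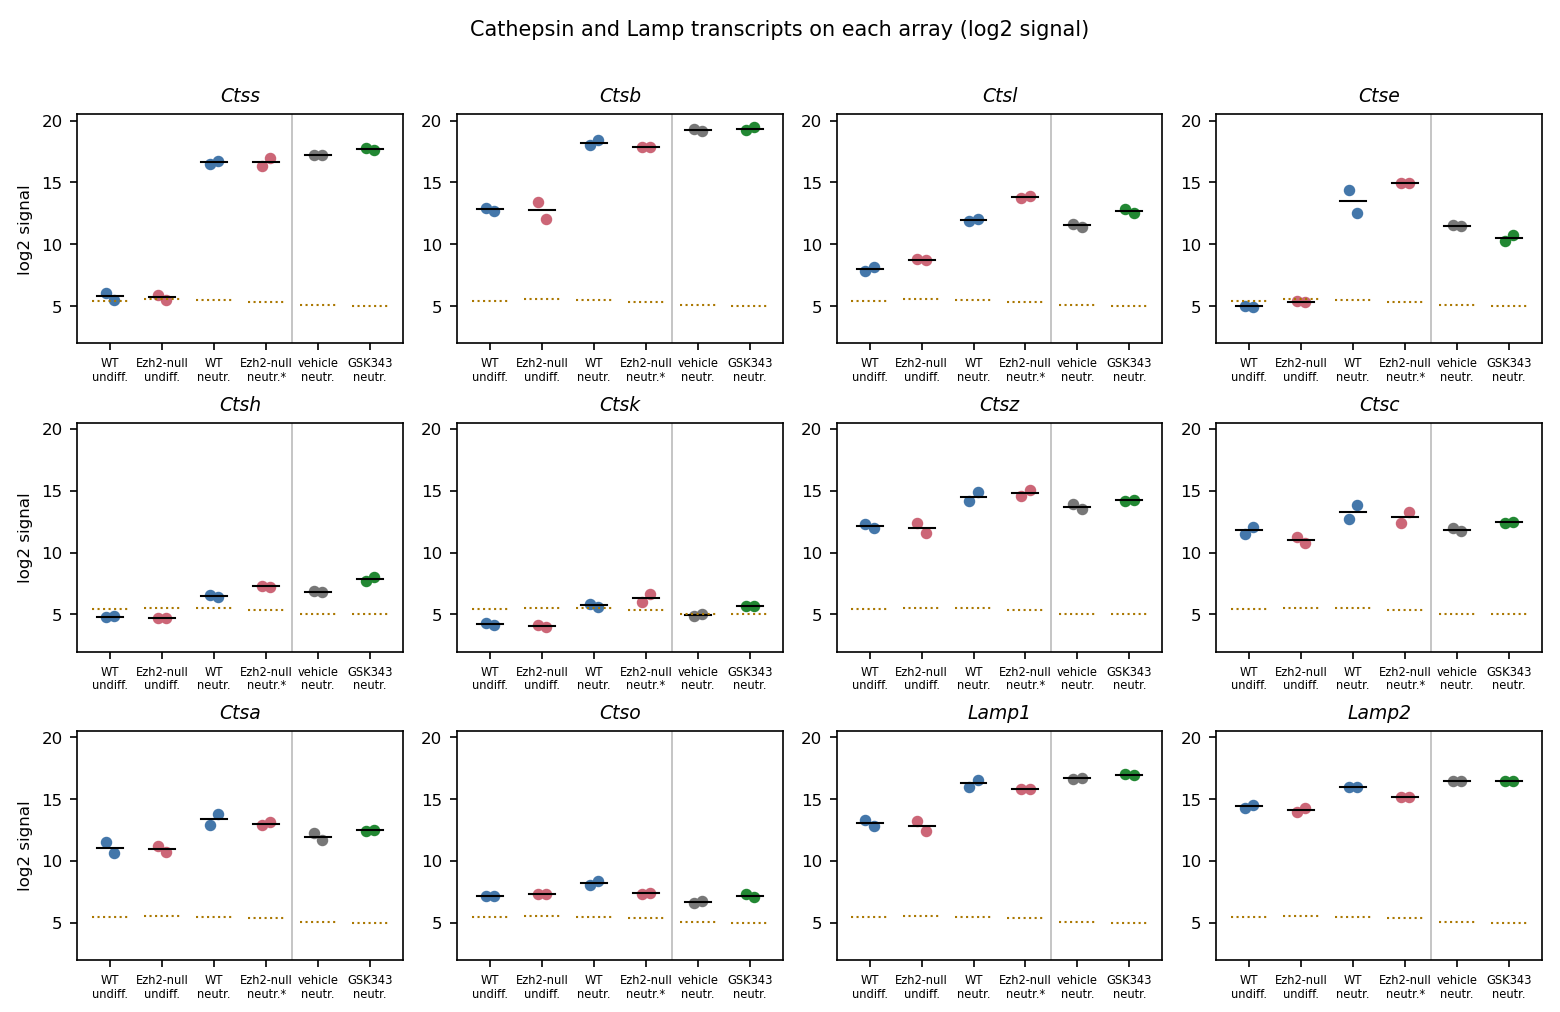
Log2 signal of 12 cathepsin and Lamp genes (points: the 2 arrays of a group; black bars: their mean; dotted lines: mean array background; the grey line parts the array ranges; the asterisk marks neutrophils labelled Ezh2-null, in which Ezh2 was not lower). Ctss rises from near background to between 16.30 and 16.94 in neutrophils of both genotypes, and Ctsl is higher at 13.73 and 13.93 in those labelled Ezh2-null than at 11.90 and 12.01 in wild type.

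In the V1 sector, genes of the catalytic core rose clearly. Atp6v1a, the ATP-hydrolysing A subunit, read 10.37 and 10.32 before and 12.80 and 13.21 after differentiation (2.66, SE 0.175, adjusted p = 7.27e-06). Atp6v1b2, the B subunit of most tissues, read 11.98 and 11.97, then 14.40 and 14.35 (2.40, SE 0.125). Atp6v1c1, whose C subunit joins the sectors, read 10.36 and 10.51, then 12.72 and 12.91 (2.38, SE 0.136). These 3 genes had tight duplicates and no overlap between groups. Atp6v1g2, a G subunit known mostly from neurons, rose from 7.84 and 7.67 to 10.31 and 9.66 (2.23, SE 0.276), against 8.52 and 8.97 to 9.74 and 9.30 for its ubiquitous paralogue Atp6v1g1 (0.78, SE 0.186). The rotor gene Atp6v1d went from 10.65 and 10.91 to 11.99 and 11.95, and the stator gene Atp6v1e1 from 10.68 and 11.15 to 12.12 and 11.87. Atp6v1h, a regulator of ATP hydrolysis, rose least, from 9.73 and 9.86 to 10.37 and 10.26 (0.52, adjusted p = 0.0228).

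Some of the smaller V1 calls were lost when a single array was left out, which leaves 1 array in a group and so less precision. Atp6v1h was no longer called when any of the 4 arrays was left out (0.45 to 0.58). Atp6v1e1 lost its call without the first undifferentiated array (0.84), and Atp6v1g1 without that array or without the first neutrophil array (0.55 in each case). Atp6v1f read between 6.36 and 6.70 on these 4 arrays and was not called. Atp6v1e2, an E subunit known from testis, read 6.94 and 7.44 against 7.46 and 6.93, which overlap.

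In the V0 sector, Atp6v0d2 stood apart from its paralogue. The d subunit couples the rotor of V1 to V0, and d2 is known from osteoclasts and macrophages. Atp6v0d2 read 4.17 and 4.04, under background, in undifferentiated cells and 11.98 and 10.76 in neutrophils, at least 61.0-fold higher (7.27, SE 0.787, adjusted p = 0.000117). Its duplicates differed by more than those of Atp6v0d1, which rose from 12.35 and 11.91 to 13.51 and 13.37 (1.31, SE 0.288). Of the a subunits, which anchor the pump in a given membrane, Atp6v0a1 rose from 11.73 and 11.26 to 13.66 and 13.99 (2.33, SE 0.222). Atp6v0a2 read 10.16 and 9.93 before and 10.13 and 9.79 after, so its groups overlapped. The proteolipid gene Atp6v0b rose from 10.51 and 10.41 to 12.62 and 12.42 (2.06, SE 0.204). Atp6v0e, a small membrane subunit, rose from 12.94 and 12.59 to 13.98 and 13.71 (1.08, adjusted p = 0.029), without overlap. Its call was lost without any of the 4 arrays in turn (0.91 to 1.25), and that of Atp6v0d1 without the second undifferentiated array (1.09).

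Both Lamp genes and the accessory subunit gene Atp6ap1 rose. Lamp1 went from 13.33 and 12.86 to 16.01 and 16.53, or 9.04-fold (3.18, SE 0.269, adjusted p = 2.77e-05). Lamp2, whose A isoform imports proteins in chaperone-mediated autophagy, went from 14.29 and 14.56 to 16.01 and 16.00, or 2.99-fold (1.58, SE 0.135). Atp6ap1, needed for assembly of V0, went from 13.02 and 12.82 to 14.35 and 14.57 (1.54, SE 0.211). In each case both neutrophil arrays lay above both undifferentiated arrays. Atp6ap2, the prorenin receptor, read 12.74 and 13.10 against 12.83 and 13.02, with overlap.

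**Figure D2:**
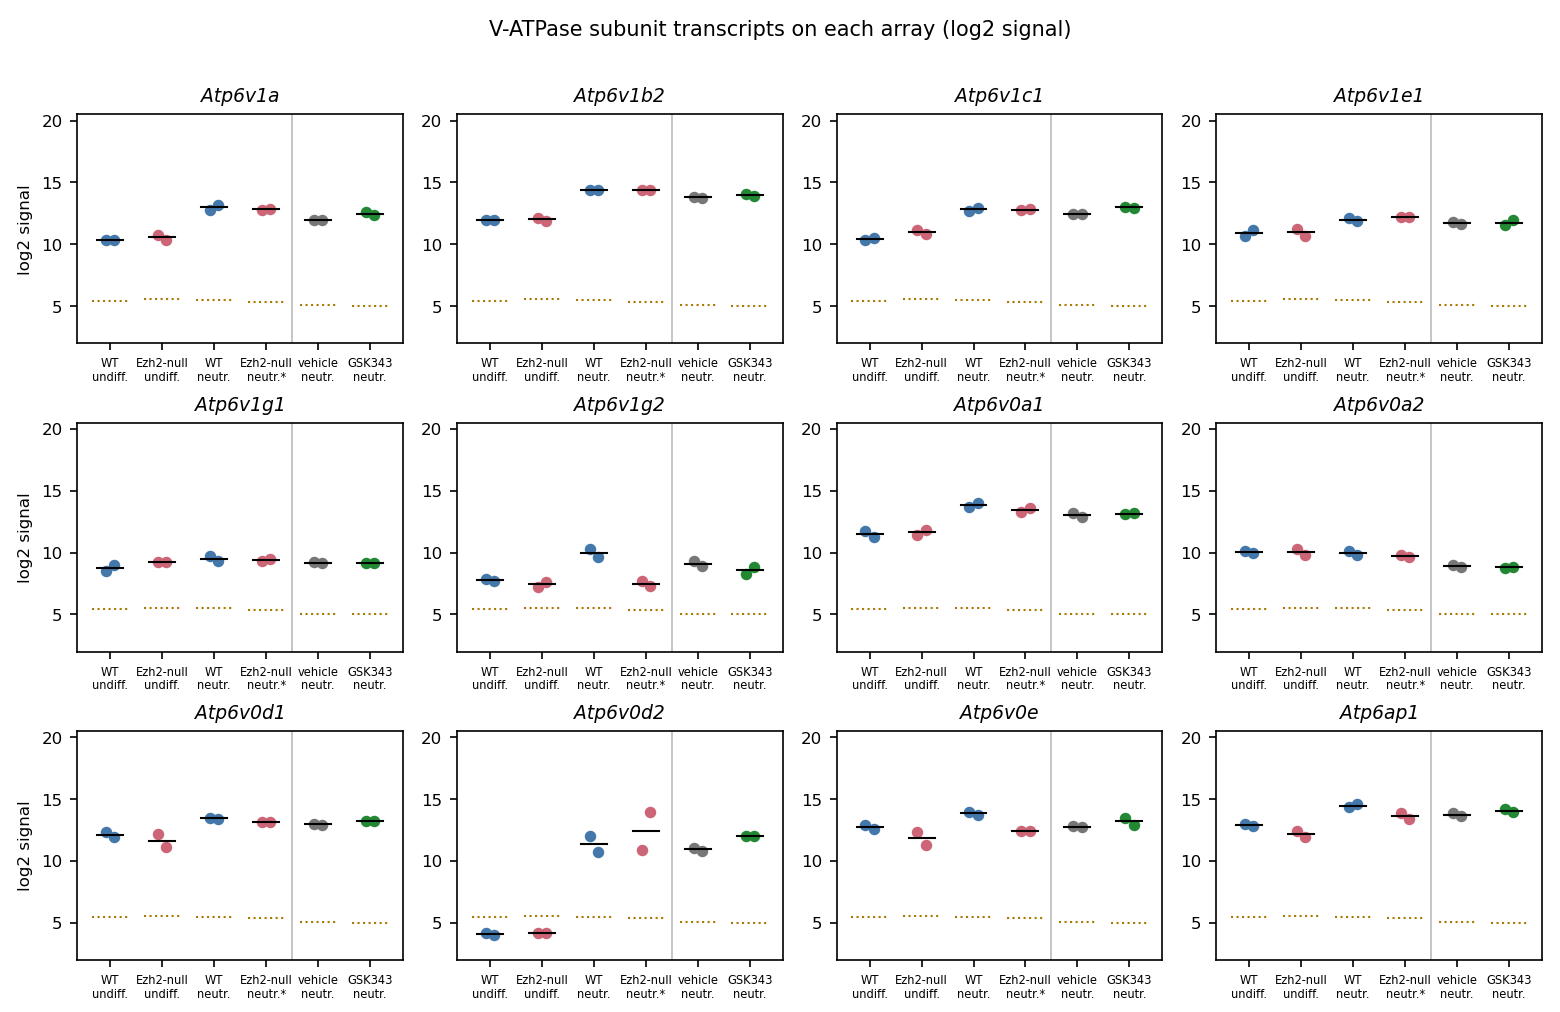
Log2 signal of 12 V-ATPase genes, drawn as in the plot of cathepsin values. Atp6v1a, Atp6v1b2 and Atp6v1c1 rise in both genotypes, Atp6v0d2 rises from under background with wide duplicates (10.92 and 14.00 in neutrophils labelled Ezh2-null), and Atp6v1g2 reads 10.31 and 9.66 in wild-type neutrophils against 7.67 and 7.31 in those labelled Ezh2-null.

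The same comparison in Ezh2-null cells shares no arrays with the one in wild type. Here 21 of the 41 genes rose and 1, Ctsf, fell, where 22.4% of all clusters were called, 11.7% as higher. The median difference was 0.71, against 0.01 over all clusters. A total of 20 genes rose in both comparisons, which is 20 of the 26 that rose in wild type and 20 of the 21 that rose here. Ctss went from 5.93 and 5.48 to 16.30 and 16.94 (10.92, SE 0.262, adjusted p = 3.95e-08). Ctse went from 5.39 and 5.30 to 14.98 and 14.99, at least 688-fold. Atp6v0d2 went from 4.19 and 4.18 to 10.92 and 14.00, at least 120.0-fold. The first of these neutrophil arrays was far lower than the second for Atp6v0d2, and the difference of 8.28 was 9.82 without it and 6.74 without the second.

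The endopeptidase and membrane genes that led in wild type rose here too. Ctsb went from 13.45 and 12.03 to 17.88 and 17.84 (5.12, SE 0.367). Ctsl went from 8.81 and 8.71 to 13.73 and 13.93 (5.07, SE 0.158). Lamp1 went from 13.20 and 12.41 to 15.81 and 15.85 (3.03, SE 0.269). None of these groups overlapped. Ctsh and Ctsk, under background before differentiation, were at least 3.25-fold and at least 1.73-fold higher after it. The rises of Ctsz (2.86), Atp6v1b2 (2.38), Atp6v1a (2.28), Ctsa (2.04), Atp6v1c1 (1.82), Ctsc (1.81), Atp6v0a1 (1.80), Atp6v0d1 (1.52), Atp6ap1 (1.46), Atp6v1e1 (1.25), Atp6v0b (1.18) and Lamp2 (1.04) also passed. Atp6v1e2 was called at 0.71 but not without any of the 4 arrays in turn (0.58 to 0.84), the rise of Atp6v0d1 was 0.99 without the second undifferentiated array, and Ctsc was not called without the second neutrophil array (1.37). Ctsf, which degrades the invariant chain in macrophages, read 5.27 and 5.60 before and 4.83 and 4.90 after (−0.57, adjusted p = 0.0161), at or near background throughout. Its call was lost without the second undifferentiated array (−0.40) and without either neutrophil array (−0.53 and −0.61).

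Markers of monocytes and macrophages moved with differentiation in both genotypes, where 13.0% (wild type) and 11.7% (Ezh2-null) of all clusters were called as higher. Of 13 such markers, 5 or 6 were above background in undifferentiated wild-type cells and 11 in wild-type neutrophils, and the log2 of their summed signal went from 12.71 to 13.22 up to 15.84 to 17.17. In the Ezh2-null cells 4 or 5, then 10 or 11 were above background, and the summed signal went from 9.57 to 9.66 up to 14.96 to 15.48. A total of 10 rose in each genotype, among them Csf1r, the receptor of macrophage colony-stimulating factor, at 9.41 in wild type. C1qa was at or under background on all 12 arrays. Cathepsin and V-ATPase genes are used by macrophages as well as neutrophils, and the part of these markers in the rises was not tested. In bulk RNA, fewer cells of a type and less RNA per cell cannot be told apart. Of 6 osteoclast markers, Dcstamp, Ocstamp, Calcr and Oscar were at or under background throughout, and Itgb3 and Nfatc1 were above it in every group. The summed log2 signal of the 6 was 10.66 to 11.14, then 11.22 to 11.61 in wild type and 10.31 to 11.16, then 11.27 to 12.59 in Ezh2-null cells, and Nfatc1 rose in both (2.24 and 0.71). The second of these calls was lost without the first undifferentiated or the second neutrophil array. Itgb3 went the opposite way in the genotypes, at −2.15 in wild type and 1.51 in Ezh2-null cells, and was called in neither.

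Markers of further cell types moved differently in the genotypes' differentiation. Of all clusters, 11.7% rose and 10.7% fell in Ezh2-null cells, and 13.0% and 12.2% in wild type. Of 9 mast cell and basophil markers, 7 rose and 2 fell in Ezh2-null cells, with 6 above background before and all 9 after and a summed signal of 18.01 to 18.34, then 19.39 to 19.42. In wild type none rose and 5 fell, with 6 above background before and 3 or 4 after (18.81 to 18.90, then 12.08 to 13.64). Of 9 erythroid and megakaryocyte markers, 6 rose and 1 fell in Ezh2-null cells, with 4, then 9 above background (15.33 to 15.83, then 17.40 to 17.62). In wild type 1 rose and 2 fell, with 4, then 3 above background (15.53 to 15.59, then 9.65 to 12.12). Their part in the rises was not tested.

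Other lysosomal genes rose with differentiation too. Of all clusters, 13.0% were called as higher and 12.2% as lower in wild type. In Ezh2-null cells these shares were 11.7% and 10.7%. Of 32 further hydrolases measured, 20 rose and none fell in wild type (median 1.75), led by the asparaginyl endopeptidase Lgmn (at least 134-fold), the sphingolipid activator Psap (5.36, SE 0.262) and the acid lipase Lipa (4.57, SE 0.236). Of 17 other lysosomal membrane genes, 13 rose and none fell (median 1.61), led by the metal transporter Slc11a1 (8.18), Cd68 (6.19) and the cholesterol transporter Npc1 (4.42). Of 10 further pump and assembly genes, 4 rose and 1 fell. The largest rises were in Dmxl2 (5.53) and Wdr7 (3.07), the parts of rabconnectin that help V1 join V0, and in Tcirg1 (3.14), the a3 subunit of osteoclast and macrophage lysosomes. Of 14 regulators of lysosome biogenesis, 9 rose, led by the folliculin partners Fnip2 (4.47) and Fnip1 (2.65) and by Tfe3 (2.63). In Ezh2-null cells, 16 hydrolases rose and 2 fell, 12 membrane genes rose and 1 fell, 5 pump and assembly genes rose and 1 fell, and 8 regulators rose, with 13 calls among the membrane genes falling to 8 without either neutrophil array.

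**Figure D3:**
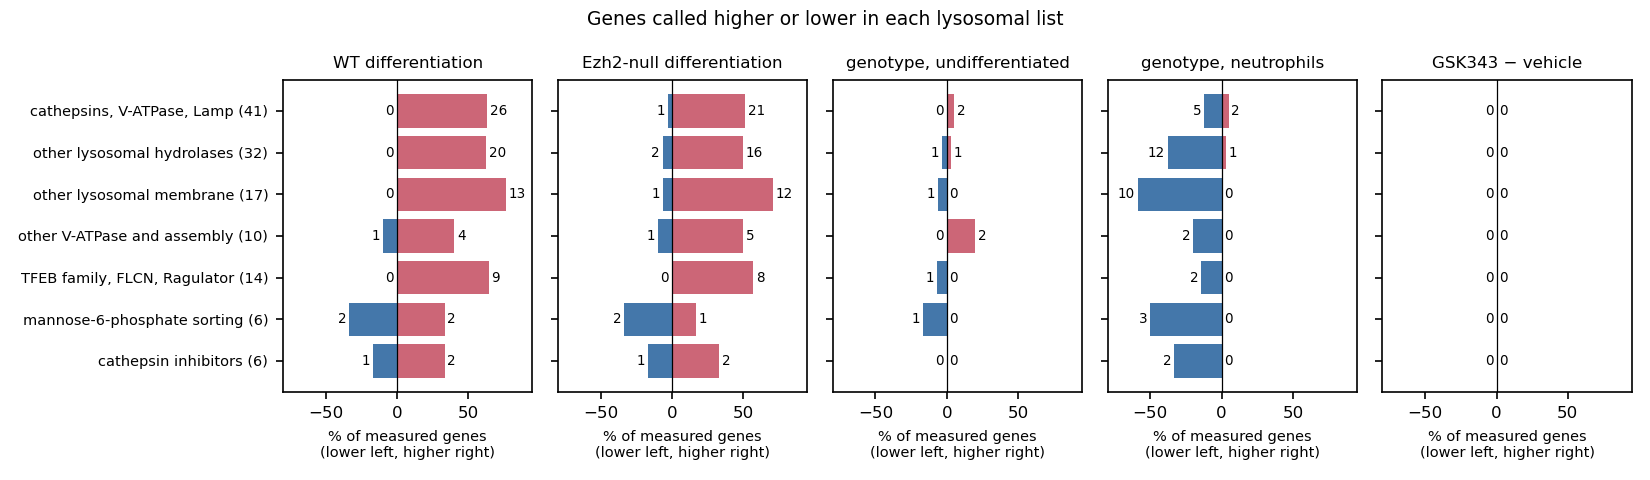
Percentage of the measured genes of 7 lysosomal lists called higher (red, right) or lower (blue, left) in each of 5 comparisons, with the number of genes beside each bar and the list's size in parentheses. Rises outnumber falls in both differentiation panels for every list but mannose 6-phosphate sorting, falls outnumber rises in the panel of genotype in neutrophils (12 of 32 further hydrolases and 10 of 17 further membrane genes), and no gene is called in the GSK343 panel.

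The next comparison asked what the Ezh2 genotype did in undifferentiated cells. Of the 41 genes, 2 rose and none fell, where 2.99% of all clusters were called, 1.65% as higher and 1.34% as lower, so the share was close to that of all clusters. The median was 0.00, against −0.01 over all clusters. Ctsl read 7.85 and 8.15 in wild type and 8.81 and 8.71 in Ezh2-null cells, without overlap, a 1.70-fold rise (0.76, SE 0.158, adjusted p = 0.0351). Ctsf read 4.67 and 4.68 against 5.27 and 5.60 (0.76, adjusted p = 0.0193), and only 1 of these 4 arrays was above background, so no fold is given. Neither call was firm. That of Ctsl was lost without any of the 4 arrays in turn (0.62 to 0.91), and that of Ctsf without either wild-type array (0.75 and 0.77) or the second Ezh2-null array (0.59). Without the first Ezh2-null array, Atp6v0e (−1.44), Atp6v0d1 (−1.03) and Atp6ap1 (−1.01) were called as lower, and without the second, Atp6v1c1 (0.69) as higher. Those 2 Ezh2-null arrays were apart for several genes: Ctsb read 13.45 and 12.03, and Atp6v0e 12.33 and 11.32. Among the 14 regulators 1 was called, Tfec, a relative of TFEB, which was lower (−3.68, SE 0.515, adjusted p = 0.0046). Of the 32 further hydrolases, the carboxypeptidase Scpep1 was higher (1.73) and Neu1 lower (−1.0, adjusted p = 0.00447). Of the 17 further membrane genes Slc36a1 was lower (−1.63), and of the 6 mannose 6-phosphate sorting genes Gnptg was lower (−0.78). Scpep1 lost its call without either wild-type array (1.83 and 1.63) or the first Ezh2-null array (1.29), and Slc36a1 without the first wild-type array (−1.20) or the second Ezh2-null array (−1.46). Gnptg lost it without either wild-type array (−0.80 and −0.77) or the second Ezh2-null array (−0.69). Of the 10 further pump and assembly genes, Dmxl2 (2.0) and Ccdc115 (0.87) were higher. Dmxl2 lost its call without the second wild-type array (1.89), and Ccdc115 without the first wild-type array (0.64) or the first Ezh2-null array (0.84). Of 10 neutrophil markers, 7 were above background in Ezh2-null cells and 5 in wild type, and 2 were called as higher. The summed log2 signal of 6 promyelocyte markers was 17.52 to 17.67 against 18.41 to 18.52 (3 called as lower). For 13 monocyte and macrophage markers it was 9.57 to 9.66 against 12.71 to 13.22 (2 lower). Of 9 mast cell and basophil markers, 2 were higher and 1 lower. The part of these markers in the difference of Ctsl was not tested.

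Among neutrophils, 2 of the 41 genes were higher and 5 were lower in those labelled Ezh2-null, where 11.8% of all clusters were called, 6.75% as higher and 5.06% as lower. The median of the 41 was −0.07, against −0.03 over all clusters. The higher genes were the cysteine cathepsins Ctsl and Ctsh. The lower ones were the V1 gene Atp6v1g2, the V0 gene Atp6v0e, the accessory Atp6ap1, Lamp2 and the cathepsin Ctso. At 7 of 41, the share called was not far above that of all clusters. Ctss and Ctsb, which led the rises on differentiation, were not called: Ctss read 16.52 and 16.75 in wild type and 16.30 and 16.94 in those labelled Ezh2-null (−0.02, 95% interval −0.61 to 0.58), and Ctsb 18.04 and 18.40 against 17.88 and 17.84 (−0.36, interval −1.19 to 0.47).

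Ctsl read 11.90 and 12.01 in wild-type neutrophils and 13.73 and 13.93 in those labelled Ezh2-null. All arrays of the second group were higher, by 3.66-fold (1.87, SE 0.158, adjusted p = 0.000112). Ctsh read 6.58 and 6.40 against 7.32 and 7.21, also without overlap (0.77, SE 0.133, adjusted p = 0.00524). Atp6v1g2 read 10.31 and 9.66 against 7.67 and 7.31, a 5.63-fold lower level (−2.49, SE 0.276, adjusted p = 0.000485). The level in neutrophils labelled Ezh2-null was within the range of undifferentiated cells of both genotypes, 7.22 to 7.84, and the gene was not called on differentiation of Ezh2-null cells (0.06). Its paralogue Atp6v1g1 read 9.74 and 9.30 against 9.29 and 9.52, with overlap (−0.12).

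The remaining lower genes changed less. Lamp2 read 16.01 and 16.00 in wild type and 15.17 and 15.15 in those labelled Ezh2-null (−0.85, SE 0.135, adjusted p = 0.00349), and the difference was −1.66 after quantile normalization. Ctso read 8.06 and 8.36 against 7.37 and 7.43 (−0.81, SE 0.137, adjusted p = 0.00468). Atp6v0e read 13.98 and 13.71 against 12.41 on both arrays (−1.44, SE 0.307, adjusted p = 0.0151), and Atp6ap1 read 14.35 and 14.57 against 13.84 and 13.41 (−0.83, SE 0.211, adjusted p = 0.0327). All 4 were without overlap. The call of Atp6v0e was lost without the first wild-type array (−1.30) or without either array of those labelled Ezh2-null (−1.44 and −1.43). That of Atp6ap1 was lost without either wild-type array (−0.94 and −0.72) or the second of those labelled Ezh2-null (−0.62).

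A few genes that were not called, most with wide duplicates, were called under another setting. Ctse read 14.42 and 12.55 in wild type and 14.98 and 14.99 in neutrophils labelled Ezh2-null (1.5, adjusted p = 0.0741), and without the first wild-type array it was called at 2.43. It was also called with dim clusters left out, as was Atp6v0b (−0.68, adjusted p = 0.0669). Atp6v0d2 read 11.98 and 10.76 against 10.92 and 14.00, with overlap (1.09, adjusted p = 0.509), and without the first array of those labelled Ezh2-null it was called at 2.63. Ctsk read 5.84 and 5.61 against 6.01 and 6.69 (0.63, adjusted p = 0.0911), and without that same array it was called at 0.97. Lamp1 (−0.44, adjusted p = 0.416) was called at −1.10 after quantile normalization.

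Among further lysosomal genes, falls outnumbered rises in neutrophils labelled Ezh2-null, where 5.06% of all clusters were called as lower and 6.75% as higher. Of the 32 other hydrolases, 12 were lower and 1 was higher (median −0.76), and of the 17 other membrane genes 10 were lower and none higher (median −0.95). Heparan sulfamidase (Sgsh) read 8.80 and 9.18 in wild type and 6.03 and 5.53 in those labelled Ezh2-null (−3.21, SE 0.273, adjusted p = 0.000116). Sialidase (Neu1) read 10.56 and 10.43 against 7.95 and 8.24 (−2.40, SE 0.139, adjusted p = 1.37e-05). Tartrate-resistant acid phosphatase (Acp5) was the higher gene, at least 10.2-fold, from 5.09 and 5.03 to 8.36 and 9.32. Groups did not overlap for any of these 3 genes. Slc11a1 (−1.78), the proton and amino acid transporter Slc36a1 (−1.70) and the chloride and proton exchanger Clcn7 (−1.67) led the membrane genes. The number of lower membrane genes fell to between 4 and 6 when any array was left out. Slc11a1 was not called without either wild-type array (−2.11 and −1.46) or without the second array of those labelled Ezh2-null (−1.0). Slc36a1 was not called without the second wild-type array (−1.29) or the first of those labelled Ezh2-null (−1.47), and Clcn7 not without the second wild-type array (−1.07) or either of those labelled Ezh2-null (−1.33 and −2.01).

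Of the pump and assembly genes, Rogdi, another rabconnectin part (−2.88, SE 0.420, adjusted p = 0.00219), and Wdr7 (−0.90, adjusted p = 0.0362) were lower. Wdr7 lost its call without any of the 4 arrays in turn (−0.71 to −1.10). Of the 14 regulators, Tfe3 (−0.99, adjusted p = 0.0106) and Tfeb (−0.71, adjusted p = 0.00637) were lower, where 5.06% of all clusters were. Both calls were lost without the second array of those labelled Ezh2-null (−0.87 and −0.66), and that of Tfe3 also without the second wild-type array (−0.94).

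Markers of other cell types differed between these neutrophils, where 6.75% of all clusters were called as higher and 5.06% as lower. All 9 mast cell and basophil markers were above background in those labelled Ezh2-null and 3 or 4 in wild type, with a summed log2 signal of 19.39 to 19.42 against 12.08 to 13.64, and all 9 were called as higher. All 9 erythroid and megakaryocyte markers were above background against 3 in wild type (17.40 to 17.62 against 9.65 to 12.12), and 7 were called as higher. Of the 13 monocyte and macrophage markers, 10 or 11 were above background against 11 (14.96 to 15.48 against 15.84 to 17.17), with 1 called as higher and 5 as lower. Of 6 promyelocyte markers, 5 or 6 were above background in both groups (11.68 to 12.77 against 9.42 to 9.89), and 2 were called as higher. All 10 neutrophil markers were above background in both (20.04 to 20.45 against 20.65 to 21.21), and 3 were called as lower: Camp, Cd177 and Ltf. Of the 6 osteoclast markers 2 were above background in both (11.27 to 12.59 against 11.22 to 11.61), with Itgb3 called as higher (3.05) and Nfatc1 as lower (−1.14). Neither was called without the second array of those labelled Ezh2-null, and the list's count was 1 without the second wild-type array. The part of these markers in the differences of Ctsl, Ctsh, Atp6v1g2 and the other lysosomal genes was not tested.

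**Figure D4:**
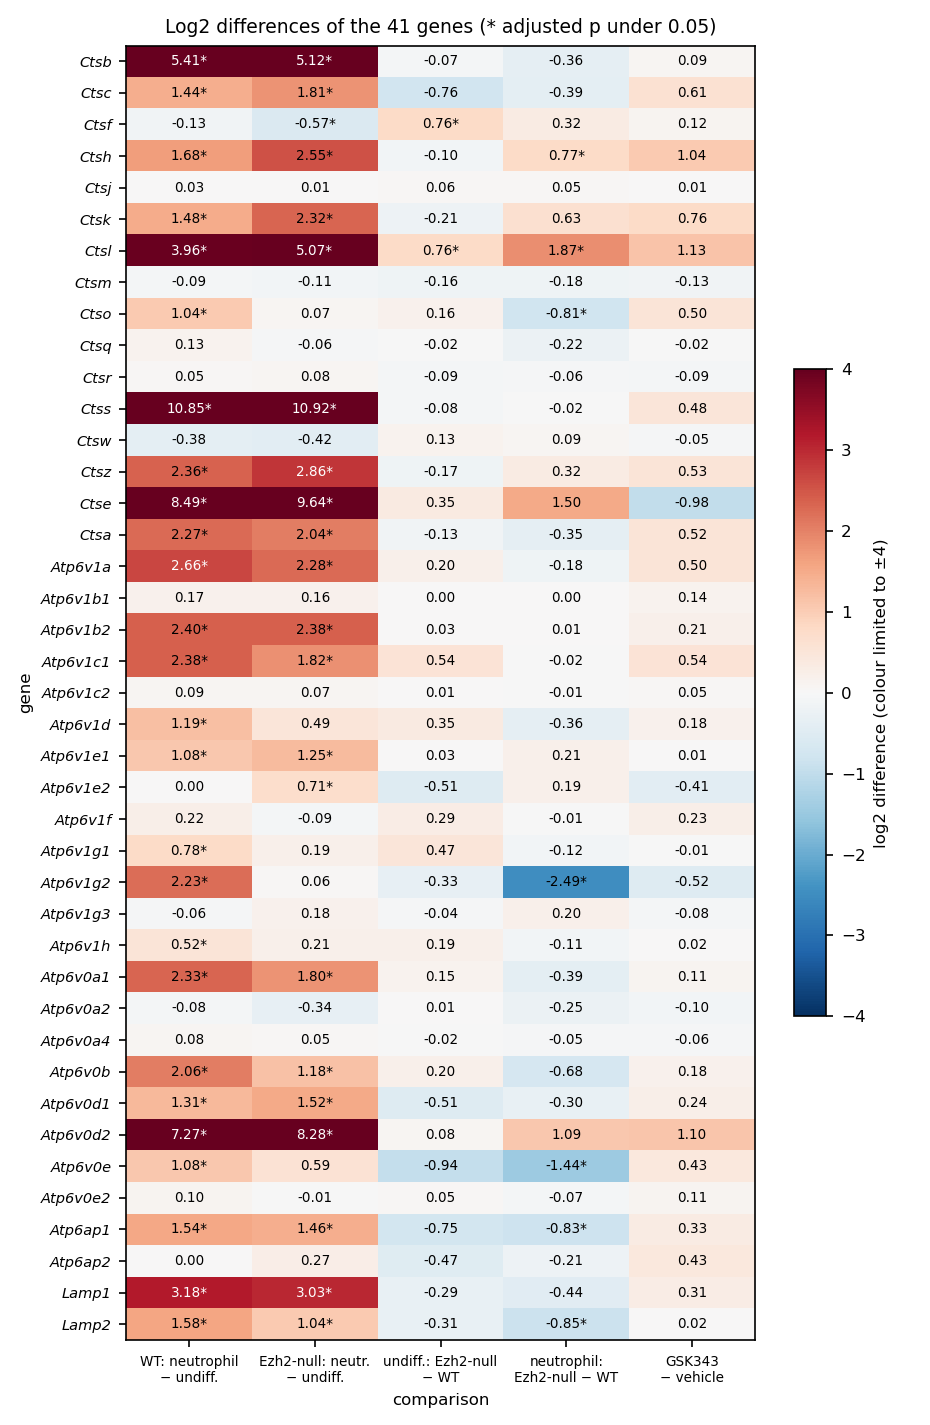
Log2 differences of all 41 genes in 5 comparisons, coloured from blue (lower in neutrophils, Ezh2-null or GSK343-treated cells) to red (higher there), with an asterisk at an adjusted p under 0.05. Both differentiation columns are red for most genes above background, 7 genes carry an asterisk in the column of genotype in neutrophils, and none does in the GSK343 column.

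GSK343 against vehicle asked whether inhibiting the enzyme in wild-type cells changed the same genes. None of the 41 was called by limma, where 1 of 65956 clusters, that of Cpa3, was called (0.00152%). At an unadjusted p under 0.05, 6 of the 41 were higher and none lower, where 6.01% of all clusters passed, 3.60% as higher and 2.41% as lower. The 6 were Ctsl, Ctsh, Ctsk, Ctso, Atp6v1a and Atp6v1c1. No count from another tool was made. The median of the 41 was 0.14, against 0.00 over all clusters.

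Ctsl read 11.67 and 11.42 with vehicle and 12.81 and 12.55 with GSK343, a difference of 1.13 (95% interval 0.78 to 1.49, adjusted p = 0.166). Ctsh read 6.86 and 6.81, then 7.73 and 8.02 (1.04, interval 0.74 to 1.34, adjusted p = 0.133). Neither gene's groups overlapped, and neither passed. Ctsk read 4.85 and 5.01 against 5.66 and 5.72 (0.76, adjusted p = 0.482), Ctso 6.61 and 6.75 against 7.29 and 7.07 (0.50, adjusted p = 0.492), Atp6v1c1 12.46 and 12.43 against 13.00 and 12.96 (0.54, adjusted p = 0.432) and Atp6v1a 11.93 and 11.98 against 12.57 and 12.34 (0.50, adjusted p = 0.69). Atp6v0d2 (11.03 and 10.83 with vehicle, 12.05 and 12 with GSK343) and Ctse (11.52 and 11.50, then 10.28 and 10.76) had larger but less certain differences, 1.10 (interval −0.68 to 2.87) and −0.98 (interval −2.03 to 0.06). For these last genes the arrays of the drug range did not overlap, and the wide intervals come from a spread estimated over all 12 arrays. Differences of Ctss (0.48, interval −0.11 to 1.07) and Ctsb (0.09, interval −0.74 to 0.92) were not called. Markers moved with GSK343 as well. Of 6 eosinophil markers, 4 were above background with GSK343 and 3 with vehicle, with Il5ra at or under background throughout and a summed log2 signal of 14.17 to 14.55 against 10.82 to 11.45. Of 9 mast cell and basophil markers, 5 to 7 were above background with GSK343 and 5 or 6 with vehicle (15.08 to 15.13 against 13.59 to 13.64), and 1, Cpa3, was called. All 6 promyelocyte markers were above background in both groups (12.45 to 12.65 against 11.25 to 11.32). All 6 read higher with GSK343, 3 of them at an unadjusted p under 0.05, and none was called. All 10 neutrophil markers were above background in both (21.33 to 21.79 against 21.90 to 21.91). All 10 read lower, 2 of them at an unadjusted p under 0.05, and none was called. Monocyte and macrophage markers above background numbered 11 of 13 in both groups (15.45 to 15.68 with GSK343 against 14.83 to 15.20 with vehicle). Among these 13, 9 read higher and 4 lower with GSK343, none of them at an unadjusted p under 0.05. The part of these markers in the differences of Ctsl and Ctsh was not tested. The highest Ctsb value, 19.44, lay near the top value of 19.93 that 3 of these arrays share.

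The genotype and GSK343 comparisons share no arrays, and the difference between them was tested directly. Of the 41 genes, 3 differed, where 3.30% of all clusters did, 1.97% upwards and 1.33% downwards. Ctso was −0.81 with the Ezh2-null label and 0.50 with GSK343 (difference −1.31, SE 0.193, adjusted p = 0.00705). Atp6v1g2 was −2.49 and −0.52 (difference −1.97, SE 0.390, adjusted p = 0.0283), and Lamp2 −0.85 and 0.02 (difference −0.87, SE 0.191, adjusted p = 0.044). The call of Lamp2 was lost without any of the 8 arrays in turn (−0.85 to −0.89), and its difference was −1.51 after quantile normalization. That of Atp6v1g2 was lost without the first wild-type array (−1.64), the second array of those labelled Ezh2-null (−1.79), the second GSK343 array (−1.70) or either vehicle array (−2.16 and −1.78). For Ctsl (1.87 and 1.13) and Ctsh (0.77 and 1.04), both differences were positive and no difference between the comparisons was called. Atp6v0e was −1.44 and 0.43, a difference of −1.86 that did not pass (adjusted p = 0.0571) but was called with dim clusters left out, under a replicate block and with the compared arrays alone (adjusted p of 0.0335, 0.0214 and 0.0144). Ctse was 1.5 and −0.98, a difference of 2.48 that did not pass (adjusted p = 0.0915) but was called without either wild-type array (3.42 and 1.55).

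**Figure D5:**
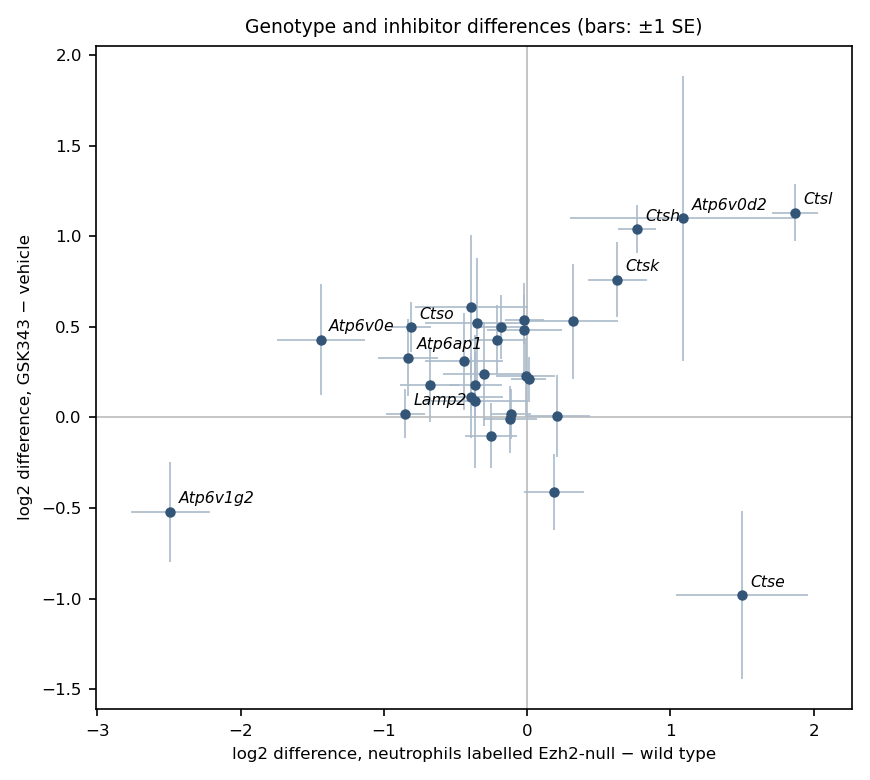
Log2 difference with GSK343 (vertical axis) against the difference between neutrophils labelled Ezh2-null and wild type (horizontal axis) for the 30 genes not under background in both comparisons (points: fitted differences; bars: 1 SE). Ctsl and Ctsh are positive on both axes, Atp6v1g2 lies far left at −2.49 and −0.52, and Ctse lies at 1.5 and −0.98.

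The effect of genotype was also set against the stage of differentiation. Of the 41 genes, 4 had an interaction, where 4.41% of all clusters did, 2.77% upwards and 1.65% downwards. The share of the 41 was above that of all clusters, but it rests on 4 genes and was not tested. The genotype difference was larger by 1.11 in neutrophils than in undifferentiated cells for Ctsl (SE 0.224, adjusted p = 0.0255) and by 0.87 for Ctsh (SE 0.188, adjusted p = 0.0339). It was more negative by −2.16 for Atp6v1g2 (SE 0.390, adjusted p = 0.0156) and by −0.97 for Ctso (SE 0.193, adjusted p = 0.0241). All 4 calls were lost in at least 1 fit without a single array, a fit that leaves 1 array in a group and so has less precision. Lamp2 was called after quantile normalization alone (−1.24). Ctsh lost its call without any of the 8 arrays (0.78 to 0.96), and Ctso without either undifferentiated wild-type array (−0.94 and −1.0), the second wild-type neutrophil array (−0.82) or either array of neutrophils labelled Ezh2-null (−0.94 and −1.0). Ctsl lost it without the second undifferentiated array of wild type (0.96) or Ezh2-null cells (1.06), the first wild-type neutrophil array (1.06) or the second of those labelled Ezh2-null (1.01). Atp6v1g2 lost it without the second undifferentiated wild-type array (−2.08) or the second array of neutrophils labelled Ezh2-null (−1.98). Cell type markers differed between genotypes at both stages, and their part in these interactions was not tested.

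The genes with no signal form a group of their own. A total of 10 were at or under background on all 12 arrays, with values between 3.01 and 4.81, and none was called in any comparison. They include Ctsj, Ctsm, Ctsq and Ctsr, proteases known from the rodent placenta whose genes lie close together on chromosome 13, and Ctsw, known from natural killer and T cells. They also include pump subunits of specialised tissues: Atp6v0a4, Atp6v1b1 and Atp6v1g3 of kidney intercalated cells, Atp6v1c2, and Atp6v0e2. Of the 41 genes, 28 were called in at least 1 of the 7 comparisons and 13 in none. The latter were these 10 with Atp6v0a2, Atp6v1f and Atp6ap2.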

How the data were processed

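From 250 ng of total RNA, 12 Mouse Transcriptome Arrays 1.0 (Affymetrix) were made, per the labels' protocols. The authors deposited normalized log2 signals. Affymetrix's Expression Console and Transcriptome Analysis Console are named in the submitters' processing notes. Neither the summarisation method nor the genome build is given in the sources used here. The 8 genotype arrays and the 4 vehicle and GSK343 arrays had different medians, so levels were compared only within each range. Of 72688 entries, 6732 control probe sets were left out of the tests.

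All 12 arrays were fitted together with limma 3.58.1 (R 4.3.3) as 6 group means, with 6 residual and 3.06 prior degrees of freedom, and the fit was tested on simulated data. A cluster was called at a Benjamini-Hochberg adjusted p under 0.05 over 65956 clusters, and adjusted p-values are limma's. Intervals are 95% intervals of the fitted difference. A fold written "at least" belongs to a gene no array of the dimmer group showed above background. It divides the brighter group's mean by the mean background of the dimmer group's arrays, with both means taken over log2 values. The number of arrays limits the precision. Overlap of groups was read from the same 2 arrays a group as the fit, so its absence adds no separate support. The share of all clusters without overlap was not computed.

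The genes and lists were chosen with earlier results of these data known. Named are all genes of the families, and of each other list the up to 3 called genes with the largest change. Of the listed genes, 8 without a cluster of their own were not used. Alternatives were quantile normalization, median centring, leaving out dim clusters, a replicate block, an intensity trend, smaller sets of arrays, a 2-fold minimum, another background and leaving out each array. Correlations of the duplicates' deviations between groups were −0.30 to 0.27, highest between wild-type neutrophils and those labelled Ezh2-null. They gave no clear sign that replicate numbers pair the samples, but cannot exclude a shared culture.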

Additional observations from a re-analysis of the deposited data

Results flagged for a closer look

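The effect of genotype differed between neutrophils and undifferentiated cells for 4 genes by a limma interaction term: Atp6v1g2 (−2.16 log2 units, more negative in neutrophils), Ctso (−0.97), Ctsl (1.11, more positive) and Ctsh (0.87). The difference between neutrophils labelled Ezh2-null and wild type also differed from that between GSK343 and vehicle for Atp6v1g2 (−1.97), Ctso (−1.31) and Lamp2 (−0.87). Leaving out single arrays ended each of these calls except that of Ctso against GSK343.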

How the results depend on the processing

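Of the 64 calls of these genes over 7 comparisons, 43 were kept under every alternative other than the 2-fold minimum, and no called value changed sign. In undifferentiated cells, 2 genes differed between genotypes; the count was 1 with dim clusters left out, 1 under the replicate block, 1 with an intensity trend, 0 with the compared arrays alone, 0 within the array range, 0 with at least a 2-fold change, and 0 to 4 when single arrays were left out. In neutrophils, 7 genes differed: 3 with at least a 2-fold change, and 5 to 8 without single arrays. The 4 interactions became 1 with an intensity trend, 1 with the compared arrays alone, 2 with at least a 2-fold change, and 0 to 4 without single arrays. The 3 differences between genotype and GSK343 were 1 to 3 without single arrays. Wild-type differentiation gave 21 to 23 calls without single arrays (26 with all), differentiation of Ezh2-null cells 19 to 22 (22 with all), and GSK343 gave 0 throughout. Under the replicate block, a pairing the labels do not state, the counts were 26 and 21 for differentiation, 1 and 8 for genotype, 0 for GSK343, 3 interactions and 3 differences from GSK343. The block ended the calls of Ctsl in undifferentiated cells, Atp6v1e2 on differentiation, the Ctsh interaction and Lamp2 against GSK343. Fits of the compared arrays alone kept the call of Lamp2 against GSK343. They ended those of Ctsc and Atp6v1g1 in wild-type differentiation, and of Atp6v0b, Atp6v0d1, Atp6v1e2 and Ctsf in Ezh2-null differentiation. Also ended were those of Ctsf and Ctsl in undifferentiated cells, Atp6ap1 in neutrophils, and the Ctsh, Ctsl and Ctso interactions. Each gene had 1 cluster, so averaging clusters gave no value. With 2 arrays a group, 10 genes under background have only an upper bound on their level.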

Other observations

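Genes that deliver or hold back cathepsins moved in both directions on wild-type differentiation, where 13.0% of all clusters rose and 12.2% fell. Of 6 genes of mannose 6-phosphate sorting, the sorting receptor Sort1 rose (3.49, SE 0.426, adjusted p = 0.000244) and Gnptab, the phosphotransferase that tags hydrolases, fell by 2.69 (SE 0.183, adjusted p = 8.69e-06), with 2 rises and 2 falls in all. Of 6 cathepsin inhibitors, cystatin F (Cst7) fell by 4.59 (SE 0.669, adjusted p = 0.000728), from 13.34 and 13.22 to 7.89 and 9.49, while stefin B (Cstb) rose by 3.45 (SE 0.378), from 10.30 and 9.88 to 13.45 and 13.63. In neutrophils labelled Ezh2-null, Sort1 was lower than in wild type, at 11.77 and 11.13 against 15.01 and 13.79 (−2.95, SE 0.426, adjusted p = 0.00204), and so was the protease inhibitor Serpinb1a (−2.82, adjusted p = 0.00648), whose call was lost without the second array of those labelled Ezh2-null (−2.30). None of these genes was called with GSK343, but only 1 of 65956 clusters was, so this sets up no contrast with the genotype.

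Ctsk and Ctss are neighbours on chromosome 3 with 0 protein-coding genes between them in the RefSeq table. On wild-type differentiation Ctss rose by 10.85, and Ctsk, under background before, was at least 1.22-fold higher.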
